A study of Arabidopsis thaliana with 60 samples.

Results

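The genes described here encode the 26S proteasome of *Arabidopsis thaliana*, the protease that degrades proteins marked with ubiquitin. They were chosen by gene identifier as the first-listed gene of each subunit, PAA1 to PAG1 and PBA1 to PBG1 of the 20S core and the RPT and RPN subunits of the 19S regulatory particle. All 31 were among the 21450 genes measured, with 7 genes each for the alpha and the beta ring, 6 for RPT and 11 for RPN subunits. Names follow the usual Arabidopsis subunit nomenclature. RefSeq lists RPN2A as AT2G32730, RPN7 as AT4G24820, RPN9A as AT5G45620 and RPN11 as AT5G23540 without a symbol.

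Transcript profiles came from the poly(A) RNA of the aerial parts of 15 plants harvested 18 days after sowing. The 5 triparental triploids (TT, ploidy 3n) arose from double pollination, the 5 biparental triploids (BT, 3n) from a tetraploid pollen donor carrying pRPS5a::mGAL4-VP16/-; pUAS::BAR-YFP/-, and the 5 biparental diploids (BD, 2n) from a diploid donor of that genotype. The mother was an ein3-1 mutant in every cross, so that all plants, the BD controls included, carry a mutant copy of this ethylene signalling gene, and all had been selected as seedlings on glufosinate-ammonium and moved to soil. BT against BD addresses ploidy, and TT against BT addresses the way in which the triploid arose. The paper's polyspermy assay brings in each construct from a different pollen donor, so TT and BT also differed in donors. Tetraploid donors had been made with colchicine, so BT and BD differed in donor treatment as well. These differences cannot be told apart from origin and ploidy. Each plant was 1 profile, combined by the authors from 4 technical replicates, which gives 5 plants in each group.

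The 20S core is a barrel of stacked rings. Its outer alpha rings form the gate through which substrates enter, and its inner beta rings carry the proteolytic sites. The 19S particle caps the barrel: a ring of RPT ATPases unfolds substrates and opens the gate, while the RPN subunits hold the particle together, bind ubiquitin chains and remove them. Many of the subunits are encoded by a pair of genes in Arabidopsis. When proteasome activity is inhibited, the transcription factors NAC53 and NAC78 are known to raise the subunit genes together, and a short motif with the core TGGGC is known from many proteasome promoters.

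Promoters are shown for 4 subunit genes, PAF1 and RPT3, which deviated strongly in BT replicate 5 (described below), and PAC1 and RPN2A, which hardly deviated there. Each sequence runs from 250 bases before to 50 bases after the start of the RefSeq gene in TAIR10.1, 5′ to 3′ on the strand of the gene. Capitals mark TGGGC or its reverse complement GCCCA. They are at chr5:17161107-17161406 (minus strand) for PAF1, chr5:23568802-23569101 (plus) for RPT3, chr3:7794213-7794512 (minus) for PAC1 and chr2:13879709-13880008 (plus) for RPN2A.
PAF1: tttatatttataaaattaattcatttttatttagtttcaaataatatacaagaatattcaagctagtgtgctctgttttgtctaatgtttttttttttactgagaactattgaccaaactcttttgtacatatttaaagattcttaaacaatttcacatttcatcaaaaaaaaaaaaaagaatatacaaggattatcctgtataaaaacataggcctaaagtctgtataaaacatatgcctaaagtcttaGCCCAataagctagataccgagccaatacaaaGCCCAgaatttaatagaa
RPT3: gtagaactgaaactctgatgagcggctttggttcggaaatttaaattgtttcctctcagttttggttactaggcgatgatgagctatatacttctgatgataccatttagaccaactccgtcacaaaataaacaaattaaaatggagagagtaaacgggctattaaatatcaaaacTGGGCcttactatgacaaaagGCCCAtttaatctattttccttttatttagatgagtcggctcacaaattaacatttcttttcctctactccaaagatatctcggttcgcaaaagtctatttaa
PAC1: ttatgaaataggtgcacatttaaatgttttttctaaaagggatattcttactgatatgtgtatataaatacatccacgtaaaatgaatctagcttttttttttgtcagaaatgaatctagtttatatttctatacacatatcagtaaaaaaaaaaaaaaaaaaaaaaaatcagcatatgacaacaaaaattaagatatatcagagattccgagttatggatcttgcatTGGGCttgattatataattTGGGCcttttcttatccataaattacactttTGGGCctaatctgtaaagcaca
RPN2A: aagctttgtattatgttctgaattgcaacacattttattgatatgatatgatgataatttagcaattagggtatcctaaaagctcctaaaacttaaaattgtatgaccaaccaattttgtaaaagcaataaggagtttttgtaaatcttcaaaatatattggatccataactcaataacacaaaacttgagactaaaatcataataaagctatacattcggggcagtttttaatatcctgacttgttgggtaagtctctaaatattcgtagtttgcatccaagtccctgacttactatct
PAF1 and RPT3 held 2 copies each, PAC1 held 3 and RPN2A none in this window. The motif was present on either strand in 19 of the 31 subunit promoters (61.3%), against 28.9% of the 21281 promoters of all measured genes that could be read and 31.6% of those whose genes averaged 50 or more normalized counts. By complex, 11 of 14 promoters of 20S genes (78.6%) and 8 of 17 of 19S genes (47.1%) held it. A match is a run of letters and not a binding site.

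All 31 genes were well expressed. Their normalized counts, which scale the reads of each gene by the size factor of its plant, lay between 833 and 4287 in single plants, and the reads behind them between 655 and 3967, for which counting error alone is 3.91% and 1.59%. Depth was between 19534646 and 30756482 reads per plant. The SD over the 15 plants of log2(normalized count + 1) was 0.16 at the median of the 31 genes, against 0.26 for the 16252 genes whose mean count reached 50, and 28 of the 31 genes were below that value. PAC1, an alpha ring gene, varied least (0.09) and PAF1, another alpha ring gene, varied most (0.32). The gene tables came from an unstranded library with reads of several placements kept. Values of close gene pairs such as RPT6A and its neighbour RPT6B, and of genes overlapped by an antisense transcript, are therefore less certain.

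Levels can be compared between genes on the TPM scale, which is per transcript length. The 31 genes averaged between 22.1 and 105 TPM, with a median of 60.4, and 24 of them were within 1.5 times that median. PBF1, a beta ring subunit without a proteolytic site, was the highest at 105 TPM. PAA1 of the alpha ring followed at 81.6 TPM and RPN7 of the 19S lid at 80.8 TPM. RPT4A, a base ATPase, was the lowest at 22.1 TPM, followed by the base scaffold RPN2A at 23.5 TPM.

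Second genes exist for 22 of the 31 subunits. The listed gene was the higher of the pair for 21 of them, and RPT4 was the exception, with 22.1 TPM for RPT4A and 66.4 TPM for RPT4B, so that RPT4 as a whole reached 88.5 TPM. The pairs nearest to equal level were PAE1 with 58.3 and PAE2 with 48.2 TPM, and PAB1 with 69.2 and PAB2 with 52.5 TPM. In other pairs the second gene was minor, with 3.87 TPM for PAC2 beside 65.1 TPM for PAC1 and 0.835 TPM for RPN12B beside 61.7 TPM for RPN12A. With both genes summed, subunits ranged between 33.7 TPM for RPN2 and 124 TPM for alpha1, a 3.68-fold range. The lowest after RPN2 were RPN3 at 38.5, RPN8 at 38.6, RPN6 at 45.1 and RPN1 at 45.1 TPM, all of the 19S particle.

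**Figure D1:**
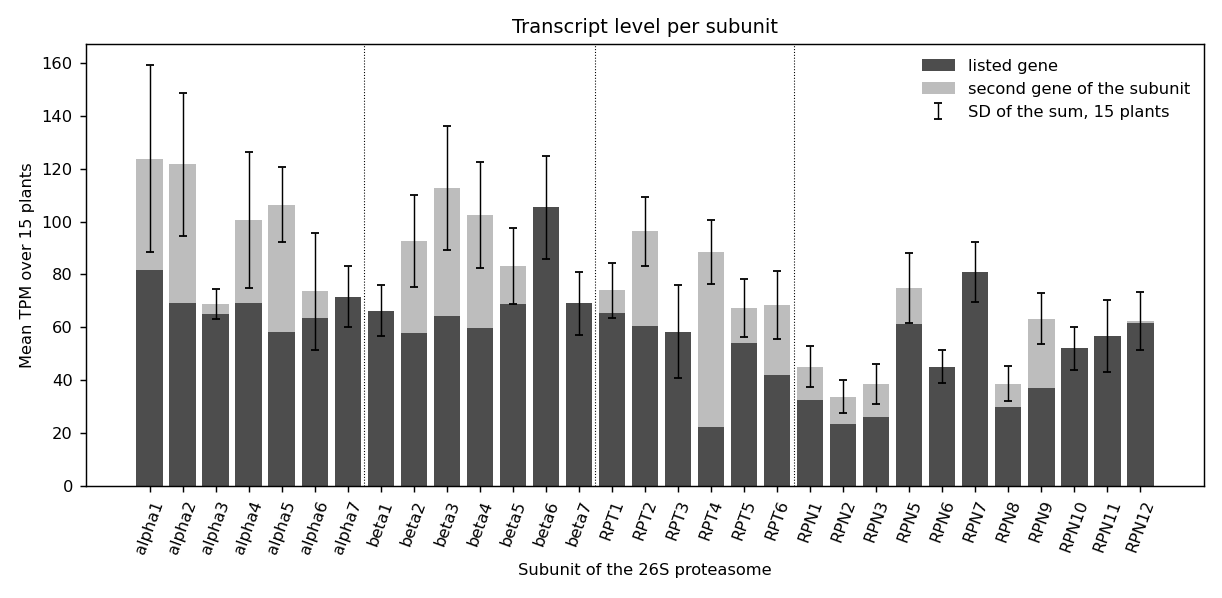
Mean TPM over 15 plants for each subunit, with the listed gene in dark grey, its second gene in light grey and the SD of the sum as bars; dotted lines separate the alpha ring, beta ring, RPT and RPN subunits. RPT4 is the only subunit with a taller second gene (66.4 against 22.1 TPM), and RPN2 is the lowest sum at 33.7 TPM.

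Transcripts of the 20S core were more abundant than those of the 19S particle in every plant. The 14 core genes averaged 69.3 TPM and the 17 genes of the regulatory particle 47.6 TPM. Their ratio was 1.46 ± 0.0881 (SD, n = 15 plants). It was 1.45, 1.40, 1.34, 1.51 and 1.38 in TT plants 1 to 5, 1.50, 1.31, 1.53, 1.54 and 1.54 in BT plants, and 1.37, 1.43, 1.63, 1.49 and 1.47 in BD plants. The 3 groups overlap, and BT replicate 2 and BD replicate 3 mark the ends. The genes were more even within the core, where the coefficient of variation over the 14 genes was 17.4%, than within the particle, where it was 35.7% over 17 genes. With second genes summed it was 22.1% for the core and 29.4% for the particle. The order of the 31 genes by TPM was much the same in each plant, with a median Spearman coefficient of 0.90 and a lowest of 0.65 over the 105 pairs of plants; this coefficient is across genes, which are not independent replicates.

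No subunit gene passed limma's adjusted threshold in any comparison of groups. Of 21450 genes, 0 (0%) passed a Benjamini-Yekutieli adjusted p under 0.05 in BT against BD, in TT against BT and in TT against BD, and edgeR and DESeq2 on the recovered reads also gave 0 each. At an unadjusted p under 0.05, limma gave 371, 2018 and 514 genes in the 3 comparisons, edgeR 363, 2382 and 650, and DESeq2 319, 2562 and 649. None of the 31 subunit genes was among those of limma or edgeR. DESeq2 had PAC1 in BT against BD (log2 fold change 0.13, unadjusted p = 0.0461) and RPN7 in TT against BT (-0.19, p = 0.0316), both with an adjusted p of 1. Standard errors of the log2 fold changes of the subunit genes lay between 0.07 and 0.18.

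In BT against BD, the median log2 fold change of the 31 genes was 0.12, against 0.00 over all 21450 genes, with 30 of the 31 positive and 0 past an unadjusted p of 0.05 in either direction. Over all genes, 0.774% passed it as higher and 0.956% as lower in BT. The direction rested on 1 plant in large part: without BT replicate 5 the median was 0.02, with 22 of 31 positive. Without BD replicate 4 it was 0.16, and 3 genes of chromosome 4, PBA1, RPT2A and RPN7, then had an unadjusted p under 0.05, as did 2.65% of all genes as higher and 2.12% as lower. Without BT replicates 2 and 5 and BD replicate 4 together, a choice made after seeing the data, the median was 0.09 and 1 of the 31 genes, PAF1, was under that p as higher in BT, beside 1.57% of all genes as higher and 1.75% as lower.

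The genes with the smallest p in this comparison were PAC1 and RPN7. PAC1 (AT3G22110), alpha ring subunit 3, had 1733, 1740, 1795, 1697 and 1717 normalized counts in TT plants 1 to 5, 1656, 1799, 1810, 1824 and 1763 in BT plants and 1481, 1616, 1795, 1636 and 1583 in BD plants. BT plants were above most BD plants, yet BD replicate 3 lay within their range. The means were 1770 ± 67.7 in BT and 1622 ± 114 in BD (SD, n = 5 each). The log2 fold change was 0.13 ± 0.07 (standard error; limma unadjusted p = 0.0937, adjusted p = 1).

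RPN7 (AT4G24820), a scaffold subunit of the lid, had 2738, 2379, 2492, 2532 and 2493 normalized counts in TT plants, 2623, 3258, 2589, 2801 and 3118 in BT plants and 2476, 2453, 2521, 2900 and 2548 in BD plants. BT replicates 2 and 5 and BD replicate 4 were the highest. Its log2 fold change was 0.15 ± 0.09 for BT over BD (limma unadjusted p = 0.0975, adjusted p = 1) and -0.18 ± 0.09 for TT over BT (unadjusted p = 0.0535, adjusted p = 1). RPN2A (AT2G32730), the base scaffold that anchors the lid, was the one gene with a negative value in BT over BD, -0.01 ± 0.11, well within its standard error.

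In TT against BT, the median log2 fold change of the 31 genes was -0.13, against 0.00 over all genes, with 27 of 31 negative and 0 past an unadjusted p of 0.05, while 4.38% of all genes passed it as higher and 5.03% as lower in TT. Here too BT replicate 5 carried most of the shift. Without it the median was -0.03, with 20 of 31 negative. Leaving out BT replicate 2 in its place brought 5 of the 31 genes, PAA1, PAB1, PAE1, PAF1 and PBD1, under an unadjusted p of 0.05, all lower in TT, while the share of all genes also grew, to 7.3% higher and 8.03% lower. With BT replicates 2 and 5 and BD replicate 4 left out together the median was -0.046, and 2 of the 31 genes, PAB1 and PAF1, were lower in TT at that p, beside 4.92% of all genes as higher and 5.03% as lower.

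PAE1 (AT1G53850), alpha ring subunit 5, had 1237, 1175, 1167, 1375 and 1129 normalized counts in TT plants, 1263, 1159, 1629, 1551 and 1747 in BT plants and 1083, 1327, 1690, 1586 and 1285 in BD plants. BT and BD plants each split into lower and higher plants, and TT plants stayed at the lower end. The log2 fold change was -0.26 ± 0.13 for TT over BT (limma unadjusted p = 0.0735, adjusted p = 1) and -0.18 ± 0.13 for TT over BD (unadjusted p = 0.196, adjusted p = 1). PAB1 (AT1G16470), alpha ring subunit 2, had a like pattern, with 1493, 1270, 1187, 1492 and 1262 normalized counts in TT plants, 1546, 1173, 1645, 1696 and 2101 in BT plants and 1224, 1322, 1696, 1676 and 1406 in BD plants. Its log2 fold change was -0.26 ± 0.14 for TT over BT and -0.12 ± 0.14 for TT over BD (limma unadjusted p = 0.0793 and 0.402, both adjusted to 1).

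The 4 genes with a positive value in TT over BT were the base scaffolds RPN2A and RPN1A and the lid genes RPN3A and RPN9A. RPN2A had 2430, 2324, 2434, 1872 and 2221 normalized counts in TT plants, 2190, 2382, 1752, 1765 and 2183 in BT plants and 2309, 2181, 1811, 1989 and 1997 in BD plants. TT plants other than replicate 4 were among the highest, and BT replicates 3 and 4 and BD replicate 3 were the lowest. The log2 fold change was 0.14 ± 0.11 for TT over BT (limma unadjusted p = 0.226, adjusted p = 1) and 0.13 ± 0.11 for TT over BD (unadjusted p = 0.253, adjusted p = 1). RPN1A (AT2G20580), the scaffold to which ubiquitin shuttles dock, had 2686, 2729, 2901, 2191 and 2740 normalized counts in TT plants, 2420, 2760, 2230, 2241 and 3023 in BT plants and 2465, 2565, 2331, 2791 and 2263 in BD plants. TT replicate 4 was the lowest of all, and the groups overlap (0.07 ± 0.11 for TT over BT, limma unadjusted p = 0.538, adjusted p = 1).

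In TT against BD, 15 of the 31 genes were positive and 16 negative, with a median of -0.00 against -0.00 over all genes and 0 past an unadjusted p of 0.05. Without BD replicate 4 the median was 0.06, with 23 of 31 positive. Over all genes, 0.984% passed as higher and 1.41% as lower in TT. PAC1 had the smallest p (0.10 ± 0.07, limma unadjusted p = 0.18, adjusted p = 1). The 3 comparisons share their plants, BT entering with opposite signs in the first and the second, so that their directions are not independent.

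**Figure D2:**
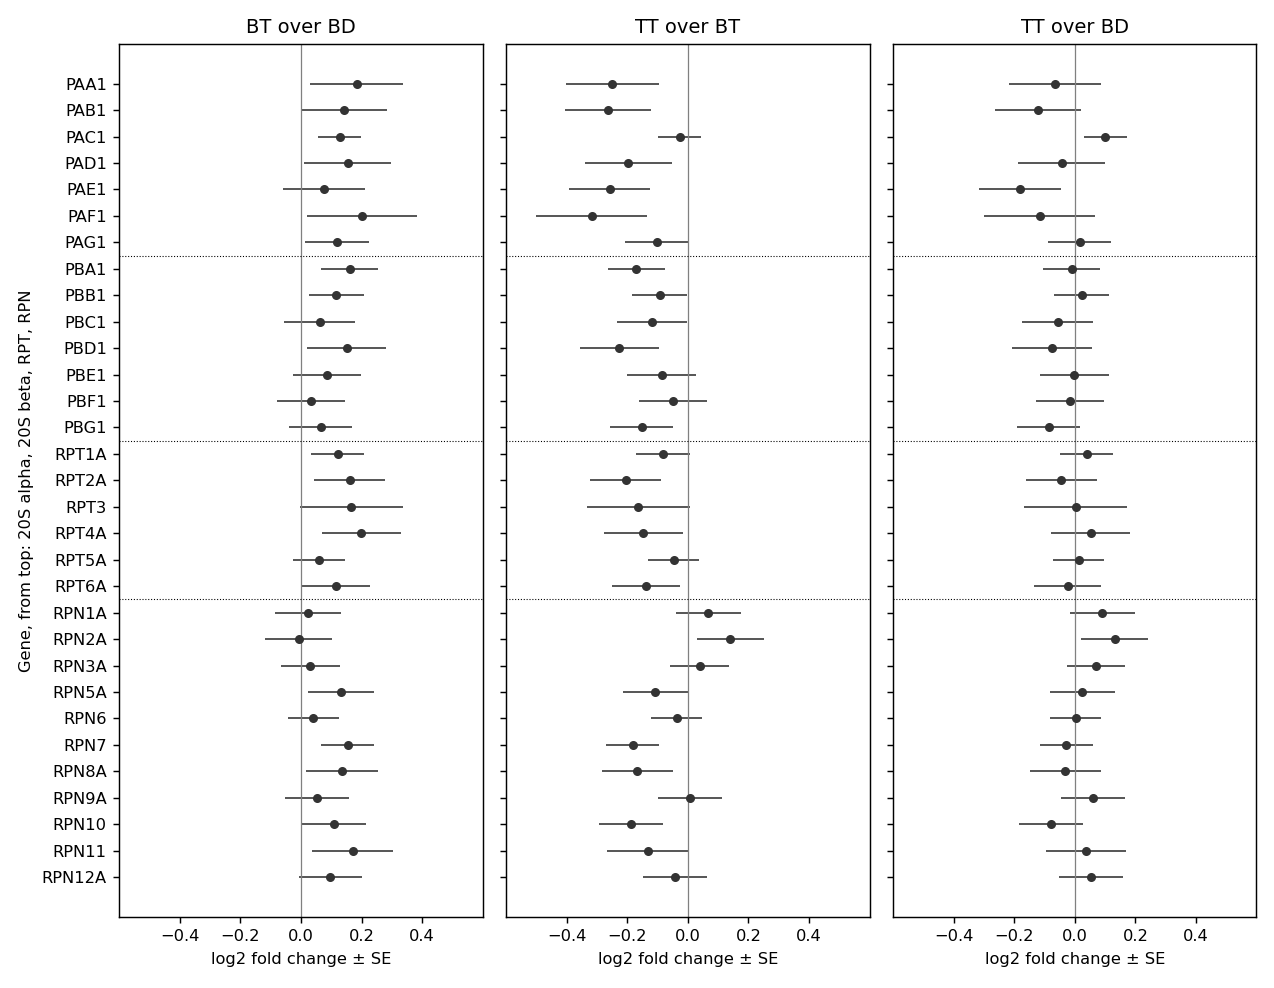
Log2 fold change of each of the 31 genes with its standard error from limma in BT over BD, TT over BT and TT over BD, with dotted lines between the alpha ring, beta ring, RPT and RPN genes. Values lie right of 0 for 30 genes in BT over BD and left of 0 for 27 genes in TT over BT, and no gene passed the adjusted threshold.

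The largest differences were between single plants. Each gene was set against its own median over the 15 plants on the log2 scale. In BT replicate 5, 30 of the 31 genes were above their median and 26 were the highest of all 15 plants, with a median deviation of 0.44, which is 1.36-fold. RPN2A was the exception, at its median. BD replicate 4 followed with 29 of 31 genes above and a median deviation of 0.21 (1.16-fold). In the other 13 plants the median deviation was between -0.08 and 0.09. Over all genes that averaged 50 or more counts the median deviation was 0.00 in each plant. Scaling by size factors holds that median near 0, so it is not a separate observation. The share of all genes that were highest in each plant was not computed. In whole shoots, more RNA of a gene per cell and a larger share of cells that express it cannot be told apart.

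**Figure D3:**
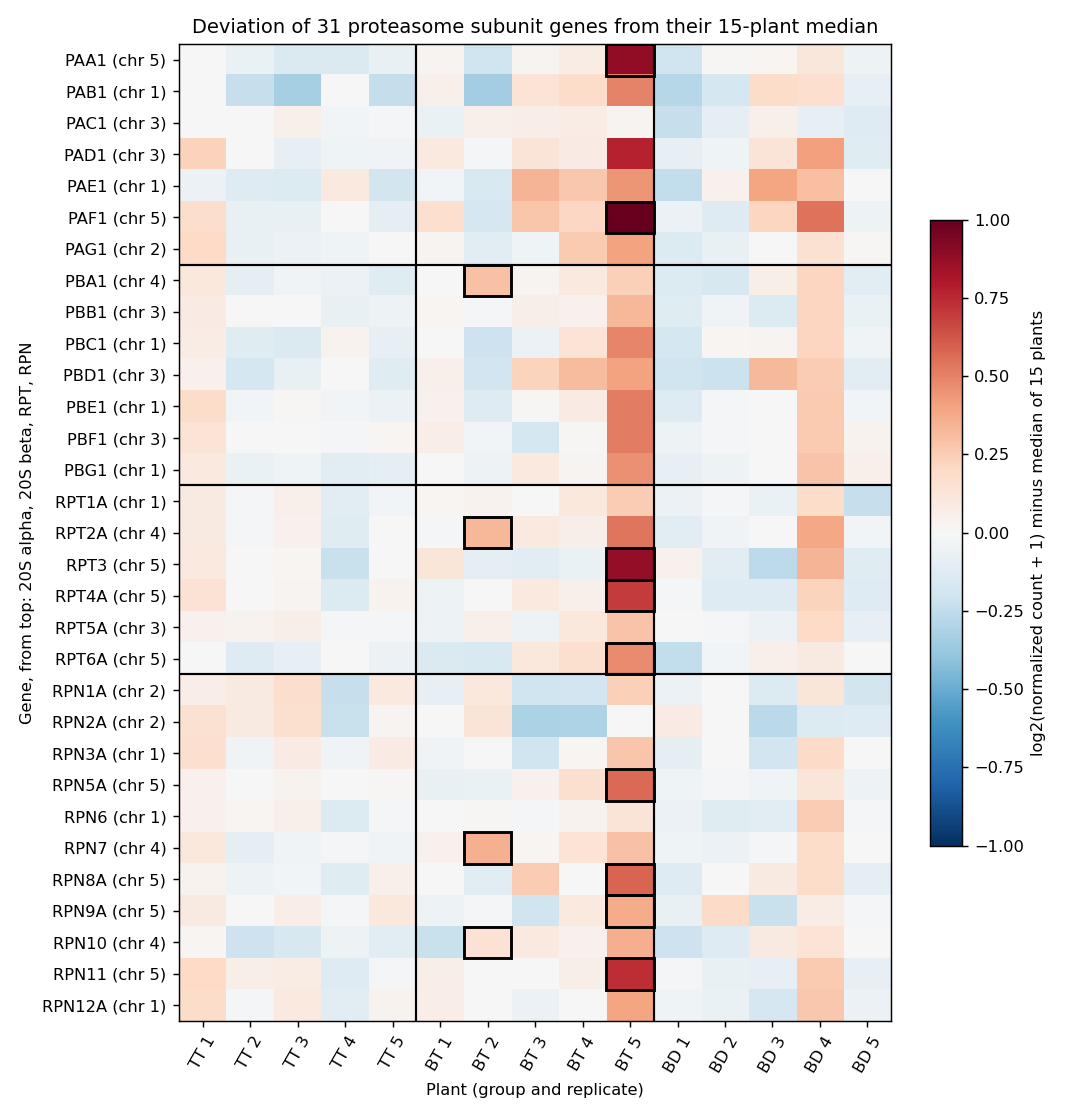
Deviation of each gene (rows, with its chromosome) from its own median over 15 plants on the log2 scale (color, limited to -1 and 1), with TT, BT and BD plants in columns and black boxes around genes of the raised chromosome in BT replicates 2 and 5. The column of BT replicate 5 is red in nearly all rows, with a median of 0.44, and that of BD replicate 4 is the next, with 0.21.

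In BT replicate 5 the shift ran through all parts of the complex. Median deviations were 0.49 for the alpha ring, 0.46 for the beta ring, 0.51 for the RPT ATPases and 0.37 for the RPN subunits. In BD replicate 4 they were 0.17, 0.25, 0.21 and 0.18 in this order. PBF1 (AT3G60820), the most abundant gene, had 2367, 2146, 2155, 2135 and 2181 normalized counts in TT plants, 2251, 2109, 1903, 2176 and 3081 in BT plants and 2077, 2135, 2148, 2577 and 2205 in BD plants. BT replicate 5 and BD replicate 4 stood above the other 13 plants, among which no group was apart.

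The remaining genes had the same 2 plants at or near the top. PBB1 (AT3G27430), the trypsin-like subunit of the beta ring, had 1637, 1542, 1546, 1462 and 1489 normalized counts in TT plants, 1559, 1522, 1603, 1590 and 1943 in BT plants and 1416, 1503, 1401, 1789 and 1471 in BD plants. PBD1 (AT3G22630), beta ring subunit 4, had 997, 860, 920, 969 and 892 in TT plants, 1003, 851, 1131, 1209 and 1285 in BT plants and 845, 833, 1217, 1156 and 897 in BD plants. PBD1 thus also had high values in BT replicates 3 and 4 and BD replicate 3, the plants in which PAE1 and PAB1 were high.

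Deviations in BT replicate 5 and BD replicate 4 were 0.77 and 0.41 for PAD1 and 0.41 and 0.15 for PAG1 of the alpha ring. In the beta ring they were 0.49 and 0.21 for PBC1, 0.51 and 0.26 for PBE1, the chymotrypsin-like subunit, and 0.46 and 0.29 for PBG1. They were 0.26 and 0.18 for RPT1A and 0.28 and 0.20 for RPT5A among the ATPase genes, and 0.27 and 0.19 for RPN3A and 0.40 and 0.27 for RPN12A among the lid genes. RPN6, a lid scaffold, was the other way round, with 0.13 in BT replicate 5 and 0.25 in BD replicate 4.

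Genes around the complex shifted in the same 2 plants. The median deviation of the 22 second genes was 0.45 in BT replicate 5 and 0.23 in BD replicate 4, that of 18 proteasome-associated factors was 0.58 and 0.29, and that of the 10 genes of the COP9 signalosome, a complex related to the lid that acts on cullin ubiquitin ligases, was 0.34 and 0.16. NAC53 (AT3G10500), a transcription factor of the proteasome stress regulon, had 832 normalized counts in BT replicate 5, 712 in BD replicate 4 and between 219 and 428 in the other 13 plants. NAC78 (AT5G04410), its close relative, had 2289, 1582 and between 1069 and 1336 in this order. UMP1B (AT5G38650), a maturation factor of the core, had 756, 345 and between 125 and 261. PA200 (AT3G13330), an alternative activator, had 3333, 2516 and between 1020 and 1946. The unfoldase gene CDC48A (AT3G09840) had 11360, 10090 and between 6523 and 8268. NAC78 and UMP1B are genes of chromosome 5, which was raised in BT replicate 5 (described below). Their rise in that plant was not separated from that of the chromosome.

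Leaf markers moved in the opposite direction. The median deviation of RBCS1A, RBCS3B, LHCB1.3, LHCA1 and RCA, genes of photosynthesis, was -0.98 in BT replicate 5 and -0.57 in BD replicate 4, but also -0.54 in BD replicate 1 and -0.48 in BT replicate 1, where the subunit genes had medians of -0.08 and 0.00. Summed over these 5 genes, normalized counts were between 1465530 and 2063760 in TT, between 845922 and 1915990 in BT and between 1208080 and 2046890 in BD. Leaf genes were thus abundant in all plants, as the labelled aerial tissue has them. Of 6 root markers only CASP1 was listed, at 0 to 8.58 normalized counts, and 5 floral markers summed to between 38.0 and 125. The part of tissue composition in the shift of the subunit genes was not tested.

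**Figure D4:**
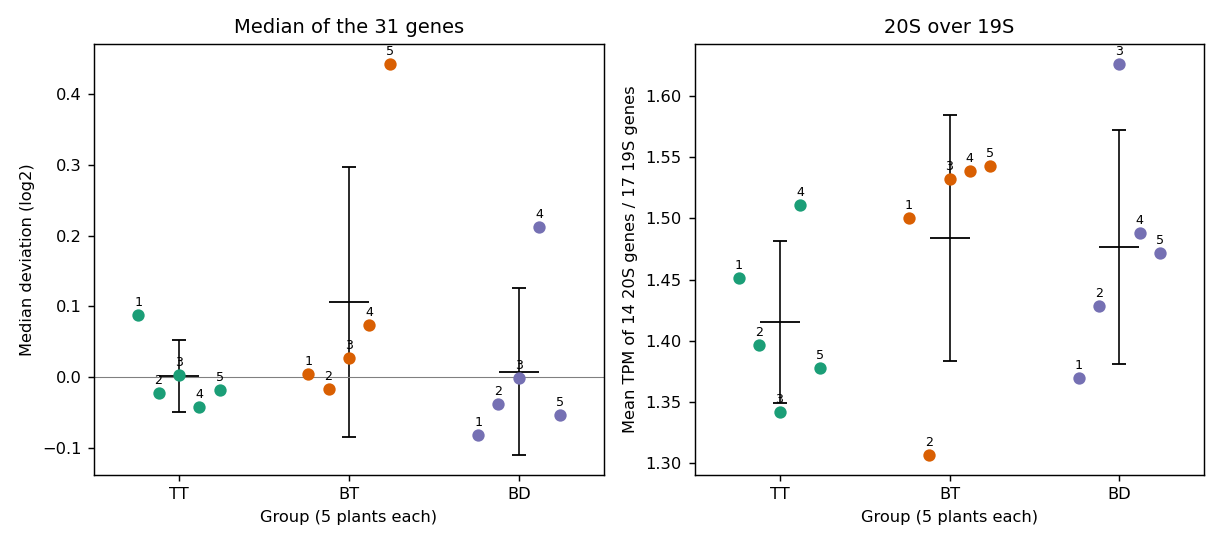
Left, median deviation of the 31 genes per plant (log2); right, ratio of the mean TPM of the 14 core genes to that of the 17 genes of the 19S particle; each point is a plant with its replicate number, and bars give mean and SD of 5 plants. BT replicate 5 (0.44) and BD replicate 4 (0.21) lie above the other plants on the left, and the ratios of the groups overlap on the right, between 1.31 and 1.63.

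Whole chromosomes or arms were raised in some of these plants, so that subunit genes on them could be compared with their neighbours. Copy number of DNA was not analysed here. In BT replicate 2, the 2463 genes of chromosome 4 that averaged 50 or more counts had a median deviation of 0.34, against -0.03 for the other nuclear genes. In BT replicate 5, the 3809 genes of chromosome 5 had 0.30, against -0.06. In BD replicate 4, the 764 genes of the end of chromosome 1, from AT1G70250 on, had 0.50, against 0.00. The same end of chromosome 1 was raised in BT replicate 3 (0.34) and BT replicate 5 (0.24). Of the 31 genes, 9 are on chromosome 1, 3 on chromosome 2, 6 on chromosome 3, 4 on chromosome 4 and 9 on chromosome 5, and 0 are at that end of chromosome 1.

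The 4 genes of chromosome 4 followed their chromosome in BT replicate 2. Their median deviation was 0.31, with values between 0.15 and 0.35, while the other 27 genes had a median of -0.03. The difference of 0.34 compares with values between -0.13 and 0.05 for the same 4 genes in the other 14 plants. PBA1 (AT4G31300), the beta ring subunit with caspase-like activity, had 1903, 1660, 1719, 1697 and 1618 normalized counts in TT plants, 1764, 2160, 1799, 1891 and 2077 in BT plants and 1603, 1575, 1838, 2043 and 1627 in BD plants. BT replicate 2 was the highest of the 15, as it was for RPN7.

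RPT2A (AT4G29040), a base ATPase, had 2307, 2141, 2240, 1993 and 2173 normalized counts in TT plants, 2153, 2737, 2319, 2268 and 3151 in BT plants and 2005, 2122, 2171, 2837 and 2133 in BD plants. RPN10 (AT4G38630), a ubiquitin receptor, had 2552, 2177, 2250, 2419 and 2323 in TT plants, 2151, 2778, 2687, 2592 and 3237 in BT plants and 2179, 2293, 2667, 2759 and 2512 in BD plants. BT replicate 2 was the third of 15 for RPT2A, after BT replicate 5 and BD replicate 4, and the second for RPN10, where BD replicate 4 was close. Second genes on chromosome 4 were above their medians there too, by 0.47 for PAC2, 0.53 for RPN1B, 0.26 for RPN9B and 0.18 for PBD2, and so were CSN6B (0.54) and CSN8 (0.15).

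In BT replicate 5 a shift with the chromosome stood on top of the shift of the whole complex. The 9 genes of chromosome 5 had a median deviation of 0.70, between 0.37 and 1.04, and the 22 genes elsewhere a median of 0.38, between 0.00 and 0.77. The difference of 0.32 was between -0.10 and 0.04 in the other 14 plants. It is near the gap between chromosome 5 (0.30) and the other nuclear genes (-0.06) in that plant. Within the core the split was 0.96 for 2 genes on chromosome 5 and 0.45 for 12 elsewhere, and within the 19S particle 0.58 for 7 and 0.28 for 10. It was 0.77 and 0.15 for the 22 second genes, of which 5 are on chromosome 5, and 0.50 and 0.21 for the COP9 signalosome, with 3 of 10 genes there.

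All 9 genes of chromosome 5 were highest in BT replicate 5. The share of all chromosome 5 genes that were highest there was not computed. PAF1 (AT5G42790), alpha ring subunit 6, had 2136, 1801, 1793, 1891 and 1770 normalized counts in TT plants, 2126, 1681, 2294, 2188 and 3877 in BT plants and 1812, 1727, 2198, 2763 and 1822 in BD plants. The value in BT replicate 5 was 2.09 times the median of the other 14 plants, the largest ratio among the 9 genes. PAA1 (AT5G35590), alpha ring subunit 1, had 1826, 1744, 1649, 1653 and 1738 normalized counts in TT plants, 1863, 1593, 1860, 1922 and 3376 in BT plants and 1590, 1837, 1856, 1980 and 1762 in BD plants. In that plant it was 1.88 times the median of the others, and no other plant stood apart.

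Of the base ATPases on chromosome 5, RPT3 (AT5G58290) had 2486, 2328, 2355, 1995 and 2340 normalized counts in TT plants, 2526, 2170, 2153, 2223 and 4287 in BT plants and 2397, 2157, 1946, 2943 and 2136 in BD plants. RPT4A (AT5G43010) had 1022, 920, 942, 841 and 947 in TT plants, 894, 924, 991, 958 and 1502 in BT plants and 909, 846, 843, 1080 and 843 in BD plants. RPT6A (AT5G19990) had 1697, 1548, 1597, 1688 and 1624 in TT plants, 1526, 1523, 1817, 1883 and 2348 in BT plants and 1426, 1658, 1745, 1792 and 1692 in BD plants. BT replicate 5 was 1.88, 1.63 and 1.40 times the median of the other plants for RPT3, RPT4A and RPT6A, so that ATPases of one ring on one chromosome differed in size of shift.

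The lid genes of chromosome 5 had ratios that overlapped those of the ATPases. RPN11 (AT5G23540), the deubiquitinase of the lid, had 1997, 1813, 1832, 1593 and 1718 normalized counts in TT plants, 1814, 1738, 1740, 1813 and 2896 in BT plants and 1713, 1653, 1644, 2085 and 1645 in BD plants. The 4 other BT plants were within 1738 and 1814, and BT replicate 5 was 1.67 times the median of the others. RPN5A (AT5G09900) had 2441, 2358, 2426, 2370 and 2391 in TT plants, 2247, 2263, 2437, 2646 and 3513 in BT plants and 2297, 2337, 2296, 2573 and 2293 in BD plants. RPN8A (AT5G05780), the partner of RPN11, had 1109, 1049, 1067, 996 and 1124 in TT plants, 1080, 1009, 1293, 1085 and 1624 in BT plants and 994, 1089, 1153, 1230 and 1012 in BD plants. RPN9A (AT5G45620) had 1133, 1066, 1117, 1057 and 1147 in TT plants, 1030, 1056, 928, 1142 and 1381 in BT plants and 1013, 1214, 914, 1120 and 1050 in BD plants. Ratios for RPN5A and RPN8A were 1.49 and 1.50, and RPN9A was the least raised of the 9 genes, with a deviation of 0.37.

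Genes on other chromosomes covered a wide range in this plant. PAD1, an alpha ring gene on chromosome 3, stood 0.77 above its median in BT replicate 5, more than most genes of chromosome 5, whereas PAC1 on the same chromosome 3 stood at 0.025, RPN2A on chromosome 2 at 0.00 and RPN6 on chromosome 1 at 0.13. Values by the number of TGGGC motifs in the promoter overlapped. The median deviation in BT replicate 5 was 0.44 for the 12 genes with 0 copies, 0.40 for the 5 with 1 copy, 0.48 for the 6 with 2 copies and 0.42 for the 6 with 3 copies. The genes with 4 and 5 copies were at 0.58 and 0.24. PAA1 at 0.89 had no copy, and PAC1 at 0.025 had 3. Motif number and chromosome are mixed in these values. Of the genes of the raised chromosome 5, PAA1, RPT4A, RPT6A, RPN5A, RPN9A and RPN11 had no copy, and only PAF1, RPT3 and RPN8A had any. A relation to motif number apart from the chromosome was not tested.

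The raised end of chromosome 1 holds no listed gene, so second genes and the COP9 signalosome were described there. In BD replicate 4, PAB2 stood 0.64 above its median, PBC2 0.73 and RPN3B 0.99, and the COP9 signalosome gene CSN5B 0.86. Their median was 0.79, against 0.20 for the other 59 genes of the 3 lists. RPN3B had 1006 normalized counts there and between 447 and 480 in the 4 other BD plants, while its listed partner RPN3A, on chromosome 1 but outside the raised end, was at 1459 against 1124 to 1284. The shuttle gene RAD23B, on the same end, stood at 0.76. In BT replicate 3 PAB2, PBC2, RPN3B and CSN5B stood at 0.50, 0.26, 0.45 and 0.37 in this order. In BT replicate 5 they stood at 0.71, 0.69, 0.56 and 1.12. The median of all genes of this end was 0.34 in BT replicate 3 and 0.24 in BT replicate 5.

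**Figure D5:**
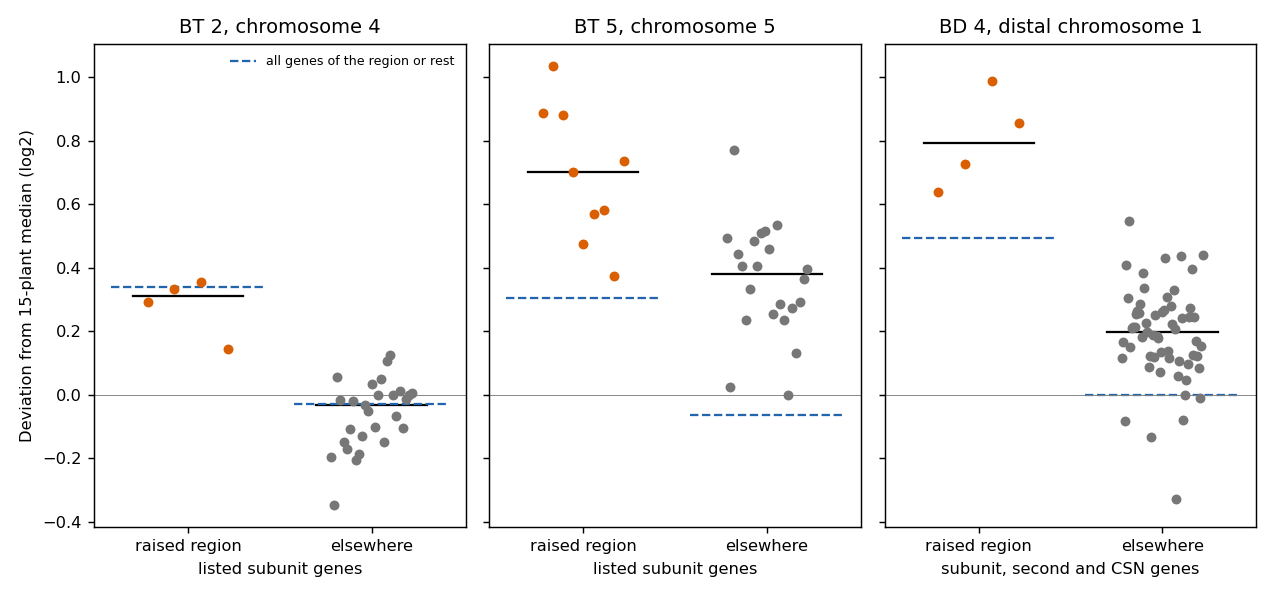
Deviation from the 15-plant median (log2) of single genes on the raised region (orange) and elsewhere (grey) in BT replicate 2, BT replicate 5 and BD replicate 4, with black lines for their medians and dashed blue lines for the medians of all nuclear genes that averaged 50 or more counts. Medians on and off the region are 0.31 and -0.03 for BT replicate 2, 0.70 and 0.38 for BT replicate 5, and 0.79 and 0.20 for BD replicate 4, where the points are subunit, second and COP9 signalosome genes.

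Subunit genes varied together between plants. Over the 465 pairs of genes the median Pearson coefficient across 15 plants was 0.68 and the median Spearman coefficient 0.48, with 445 pairs above 0, while over all 132055626 pairs of genes that averaged 50 or more counts the median Pearson coefficient was -0.0025. Within the core it was 0.79, within the 19S particle 0.67 and between core and particle 0.65. The points share library, size factor and plant, and 1 plant weighs most: without BT replicate 5 the median was 0.45 with 417 pairs above 0, and without BT replicates 2 and 5 and BD replicate 4 it was 0.42. On the TPM scale it was 0.84, but all pairs of genes then had 0.20. Second genes and COP9 signalosome genes varied together too. On the log2 scale of normalized counts their medians were 0.40 and 0.51 over 15 plants. Without BT replicate 5 these were 0.30 and 0.34. These coefficients are descriptions.

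The closest pair was RPT4A with RPN11, with a Pearson coefficient of 0.97 over 15 plants. Both are genes of chromosome 5, which was raised in BT replicate 5. Without that plant the closest pair was RPN11 with RPN12A (0.92). RPN2A went its own way. It had a coefficient of -0.74 with PAE1 and -0.61 with PBD1, and 16 of its 30 pairs were below 0, against 4 of the 435 pairs without it. Without BT replicate 5 its coefficient with PAE1 was -0.87 and 17 of the 30 were below 0, against 31 of the 435 others. In BT replicates 3 and 4 and BD replicate 3, RPN2A was at -0.32, -0.31 and -0.27 from its median and PAE1 at 0.34, 0.27 and 0.39. With the mean of the other 30 genes, PAD1 had 0.97, PBE1 0.96 and PAC1 0.27. The Spearman coefficient of PAC1 was 0.50, above those of RPN1A (0.33) and RPN9A (0.30), so the place of PAC1 depends on the measure.

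Outside the lists, the genes most like the mean profile of the 31 over 15 plants were AT5G60160, a zinc-dependent exopeptidase, AT5G52820, a notchless-type WD-40 protein, the release factor gene ERF1-1, UBC11, a ubiquitin-conjugating enzyme, and AT5G51280, a DEAD-box protein, with Pearson coefficients of 0.94 each. Of these, 4 are on chromosome 5, as were 84 of the 100 genes with the highest coefficients. Without BT replicate 5, a choice made after seeing the data, 22 of the 100 were on chromosome 5 and the first gene was LOS4 of chromosome 3 (0.94). NAC53 and NAC78 had coefficients of 0.80 and 0.88 over 15 plants, and 0.61 and 0.54 without BT replicate 5.

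Among the genes around the complex, UMP1B, PBD2 and RPN12B were among those with an unadjusted p under 0.05 in limma, each with an adjusted p of 1. UMP1B had 148, 125, 155, 144 and 133 normalized counts in TT plants, 261, 179, 214, 208 and 756 in BT plants and 225, 140, 183, 345 and 216 in BD plants. All TT plants were below all BT plants, with a log2 fold change of -0.97 ± 0.32 for TT over BT (limma unadjusted p = 0.00849). Without BT replicate 5, whose chromosome 5 with this gene was raised, it was -0.60 ± 0.20 (limma unadjusted p = 0.00985, adjusted p = 1). PBD2, the second gene of the beta4 subunit, averaged 831 ± 80.1 in TT and 1052 ± 254 in BT (-0.32 ± 0.14, limma unadjusted p = 0.0374). It is a gene of chromosome 4, had 1501 normalized counts in BT replicate 5 and between 882 and 1001 in the other BT plants, and without that plant the log2 fold change was -0.18 ± 0.11 (limma unadjusted p = 0.109, adjusted p = 1). RPN12B, a very low gene, averaged 10.1 ± 2.58 in TT and 16.8 ± 5.49 in BD (-0.67 ± 0.25, limma unadjusted p = 0.0176). Without BD replicate 5 or TT replicate 3 its limma unadjusted p was 0.0584 or 0.0525, with an adjusted p of 1. In TT against BT, 2 of the 18 associated factors, 1 higher and 1 lower in TT, 1 of the 22 second genes and 0 of the 10 COP9 signalosome genes were under this threshold, beside 4.38% higher and 5.03% lower over all genes. In BT against BD there were 0 of the 50, and in TT against BD only RPN12B.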

How the data were processed

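RNA of 15 plants, with 4 technical replicates each (60 samples), had been sequenced as single reads from unstranded poly(A) libraries. Per the labels and the study's methods, the authors trimmed reads with Trimmomatic 0.38, aligned them to TAIR10 with STAR 2.6.0c, quantified transcripts with Salmon 0.11.3, combined technical replicates and used DESeq2 1.22. The authors deposited 3 tables of 21450 genes: normalized counts, a signal in reads divided by a size factor per plant, regularized log2 (rlog) values, and TPM. All columns were mapped, and 0 were left unmapped.

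Whole reads were recovered from the normalized counts (100% of values whole within 0.001). Comparisons used limma 3.58.1 (R 4.3.3) on log2(normalized count + 1) over all genes and all 15 plants, with Benjamini-Yekutieli adjustment at 0.05. Fold changes are on that scale, which understates the change of low genes. edgeR 4.0.16 (quasi-likelihood) and DESeq2 1.42.0 on the recovered reads were alternatives. Deviations are log2 values minus the gene's median over 15 plants. Genes named per comparison were those with the smallest p among higher and among lower ones, up to 2 each, and genes of raised regions were named in full. Other named genes were chosen after their values were seen, and 1 result of the associated factors is not reported here. The subunit genes and the other lists were chosen with earlier results of these data known. The tests were tried on simulated data. Gene names, positions and promoters came from RefSeq TAIR10.1, to which 21283 identifiers matched. Its coordinates were used for promoters only. Figures were drawn with matplotlib 3.10.9 (Python 3.11.15, numpy 2.4.6, pandas 2.3.3, scipy 1.17.1).

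The p-values measure the spread between plants. Molecular identifiers were not used, so that counting errors cover counting only. Alternatives were the pseudocount (0.5 and 5), a filter at a mean count of 10, TPM, rlog values, Benjamini-Hochberg adjustment, the replicate number as a block, a fit of the 2 groups alone and leaving out each plant.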

Additional observations from a re-analysis of the deposited data

Results flagged for a closer look

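In 99 groups of 5 plants (31 genes, their median deviation and the core to particle ratio, in 3 groups), 23 had a plant whose gap to the nearest other plant exceeded 0.71 of the whole range, where chance gives about 1 in 20, or 4.95. BD replicate 4 gave 9 of them, BT replicate 5 gave 8, TT replicate 1 gave 4, and BT replicate 2 and TT replicate 4 gave 1 each. The genes are not independent, since they vary together. The share of all genes flagged by this rule was not computed, so the count cannot be called particular to these genes. Values are normalized counts.

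BT replicate 5 stood apart for PAA1 (3376, the other BT plants 1593 to 1922), PAD1 (3344, others 1936 to 2142) and PBB1 (1943, others 1522 to 1603) of the core. In the same plant this held for RPT3 (4287, others 2153 to 2526), RPT4A (1502, others 894 to 991), RPN11 (2896, others 1738 to 1814) and RPN12A (2239, others 1633 to 1784). The median deviation of the 31 genes was 0.44 there, with the other BT plants between -0.02 and 0.07.

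BD replicate 4 stood apart for PBB1 (1789, the other BD plants 1401 to 1503), PBF1 (2577, others 2077 to 2205), RPT2A (2837, others 2005 to 2171) and RPN5A (2573, others 2293 to 2337). It did so too for RPN6 (2586, others 1994 to 2148), RPN7 (2900, others 2453 to 2548), RPN11 (2085, others 1644 to 1713) and RPN12A (2049, others 1512 to 1648). Its median deviation was 0.21, with the other BD plants between -0.08 and -0.00.

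TT replicate 1 was high for PAD1 (2302, the other TT plants 1849 to 1958), PAG1 (2308, others 1915 to 2014), PBE1 (2262, others 1916 to 2010) and PBF1 (2367, others 2135 to 2181), all genes of the core. TT replicate 4 was low for RPN1A (2191, others 2686 to 2901). The core to particle ratio of BT replicate 2 was 1.31, with the other BT plants between 1.50 and 1.54.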

How the results depend on the processing

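Of 531 recomputed values, 495 kept their direction and side of the threshold or stayed within the spread between plants, and no alternative gave a gene with an adjusted p under 0.05 among the 31. The number of the 31 genes with an unadjusted p under 0.05 was 1 with DESeq2 in BT against BD and 1 in TT against BT, and between 0 and 3 and between 0 and 5 when each plant was left out in turn. Without BT replicates 2 and 5 and BD replicate 4, chosen after seeing the data, it was 1 (PAF1, higher in BT, beside 1.57% of all genes) and 2 (PAB1 and PAF1, lower in TT, beside 5.03%). Of all genes, 1023 had an unadjusted p under 0.05 in BT against BD without BD replicate 4, and 3288 in TT against BT without BT replicate 2. RPN2A in BT over BD ranged between -0.064 and 0.046 with single plants left out, and turned positive without BD replicates 1 (0.035) or 2 (0.014) and BT replicates 3 (0.046) or 4 (0.044). The cause was not tested.

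The median of the chromosome 5 genes in BT replicate 5 was 0.80 on log2(TPM + 0.1) and 0.44 on rlog values, which are shrunken by construction. For the end of chromosome 1 in BD replicate 4 it was 0.87 on TPM, 0.44 on rlog values and 0.87 against the mean of the other BD plants. The core to particle ratio was 1.36 from counts per longest RefSeq transcript. The median coefficient between genes was 0.84 on TPM, 0.42 without the 3 plants, and between 0.45 and 0.74 with single plants left out.

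With the replicate block, 0 genes were called, 372, 2035 and 629 had an unadjusted p under 0.05 in BT over BD, TT over BT and TT over BD, and 0 of the 31 genes were among them. Same-numbered plants of BT and BD correlated between -0.70 and 0.57, those of TT and BT between -0.15 and 0.44 and those of TT and BD between -0.42 and 0.43. Only 3 of 5 pairs were above 0.1 in each comparison. The plants of replicate 1 were positive in all of them (0.57, 0.44 and 0.34 in this order). Coefficients over 31 genes that vary together cannot decide whether plants of 1 number share a condition, and this was not tested further. With their own number, 3, 2 and 2 of 5 plants correlated best. With 5 plants per group and standard errors between 0.07 and 0.18, small differences could not be resolved.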

Other observations

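Profiles over the 31 genes resembled each other between some plants of different groups. The deviations in BT replicate 3 and BD replicate 3 had a Pearson coefficient of 0.82 and a Spearman coefficient of 0.79 across the 31 genes, and those in BT replicate 5 and BD replicate 4 had 0.65 and 0.45. In the first pair RPN2A was low and PAE1 high, and in the second nearly all genes were high. Genes, not replicates, are the points here, and the pairs were chosen after their values were seen.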
